A study of Mus musculus with 12 samples.

Results

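The genes described here are 40 mouse genes of mitosis and the G2/M transition, chosen by name with earlier results of these data known. They include cyclins and their kinase, mitotic kinases, spindle checkpoint, centromere and kinetochore genes, kinesins and cytokinesis genes. All 40 are among the 52661 genes of the authors' deposited expression table. For 39 of them, reads across exon-exon junctions gave a value in each library, and all 39 passed the filter on low reads, among 10363 genes tested. Ccnb1 had no intron entry in the splicing table and is described from the authors' deposited table.

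The cells were N2A (Neuro-2A), a mouse neuroblastoma line. Both derivatives used were stable Flp-In rtTA3 lines with a doxycycline-inducible Puf60 cDNA that resists the siRNA and carries an N-terminal 3xFlag tag. The cDNA includes exon 5 in the line called pEx5 and lacks it in the line called mEx5. Control libraries came from cells given 15 nM non-targeting siRNA without doxycycline, and knockdown libraries from cells given 15 nM Puf60 siRNA without doxycycline. Induction libraries came from cells given the Puf60 siRNA and then doxycycline at 2 µg/ml for 24 h. All cells were harvested 48 h after transfection, and each of the 6 groups had 2 libraries. The study compared these groups to see what loss of Puf60, a splicing factor, does and what each cDNA restores.

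Several features limit the groups as a model. Each form of the cDNA was studied in 1 stable line, so the form and the line cannot be told apart. No library came from control cells with doxycycline, so the drug and the cDNA cannot be told apart either. A free-text field describes the doxycycline libraries as uninduced, and the treatment field was followed. The series text calls the libraries biological duplicates without further detail, and p-values measure the spread between these libraries only. In bulk RNA, fewer cells in G2 or M phase and less RNA per cell cannot be told apart.

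Mitosis is driven by Cdk1 bound to cyclin B, switched on by Cdc25 phosphatases and assisted by the Polo-like and Aurora kinases. Kinetochores assembled on centromeres attach chromosomes to spindle microtubules, and the spindle checkpoint holds the anaphase-promoting complex until attachment is complete. Transcripts of many of these genes accumulate in G2 and M phase, and their level in a growing culture depends on how many cells are in those phases. In proliferating neural progenitors and neuroblastoma cells these genes are highly expressed, and they are lost as cells leave the cycle.

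Total exon-exon junction reads ranged from 22908930 to 41494994 per library, and the 39 members took 229476 to 424421 of them. Puf60 itself, which the assay cannot assign to the endogenous gene or the cDNA, was at 296 to 321 CPM (exon-exon junction reads scaled to a common library size) in the control libraries, 58.3 to 75.5 on knockdown and 579 to 631 on induction, with no overlap. In the authors' deposited table, 11 of 12 neuroblastoma and neuron markers were at 1 RPKM or more in every group, with group sums of 1091 to 1421, and Th was below 1. None of the 4 astrocyte, 4 microglia or 5 fibroblast markers reached 1 RPKM in every group, with sums of 0.58 to 3.01, 0.17 to 0.59 and 0.44 to 3.83. The astrocyte marker Gfap ranged from 0.55 to 2.97 RPKM over the groups and the fibroblast marker Pdgfra from 0.24 to 3.17. The others stayed below 1 in every group, and Aldh1l1, C1qa and C1qb were listed at 0.

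A promoter sequence was found for 34 of the 40 members in the RefSeq windows of GRCm38.p6, which run from 250 bases before to 50 bases after each start site. Promoters of G2/M genes are known for CCAAT boxes and for a cell-cycle element of the form TTTGAA. The CCAAT box, read on both strands and so including ATTGG, was in the window of 26 of the 34 members (76.5%) and of 41.1% of all 27025 genes. The TTTGAA element, also read as TTCAAA on the other strand, was also in 26 of the 34 (76.5%) and in 20.2% of all genes. Both motifs were in the window of 22 of the 34 members (64.7%) and of 7.97% of all genes. A match describes the letters in the window and is not a bound site. Cdk1 and Top2a, which hold both motifs, are shown with the 2 motifs in capitals, from the bases just before the first annotated start. Whether the motifs go with the changes on knockdown was not tested. The stretch of Cdk1 is chr10:69352939-69353022 and that of Top2a is chr11:99024190-99024299, both on the minus strand and written 5′ to 3′.
Cdk1: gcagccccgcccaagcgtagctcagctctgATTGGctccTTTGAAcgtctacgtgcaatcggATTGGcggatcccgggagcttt
Top2a: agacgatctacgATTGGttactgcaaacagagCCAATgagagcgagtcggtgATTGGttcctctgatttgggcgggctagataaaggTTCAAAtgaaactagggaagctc
The Cdk1 stretch holds 2 CCAAT and 1 TTTGAA motifs, and the Top2a stretch holds 3 and 1.

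Knockdown of Puf60 lowered 16 of the 39 members and raised 5. Of all genes tested, 23.2% fell and 25.4% rose (limma on log2 CPM, mean of both lines, Benjamini-Hochberg adjusted p under 0.05). The members that fell made up 41% of those tested and those that rose 12.8%. The number that rose was 2 without mEx5 control A or pEx5 knockdown A, and 3 without mEx5 control B, mEx5 knockdown A, pEx5 control A or pEx5 knockdown B. Most changes were small. The median log2 change of the members was -0.07, beside 0.01 for all genes, and 24 of the 39 values were below 0. Oip5, at -1.69, and Kif2c, at -0.73, stood well outside the range of the other members, which ran from -0.41 to 0.18. The knockdown libraries of both lines lay below all control libraries for 15 members and above them for 3, where 16.8% and 15.9% of all genes did so.

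**Figure D1:**
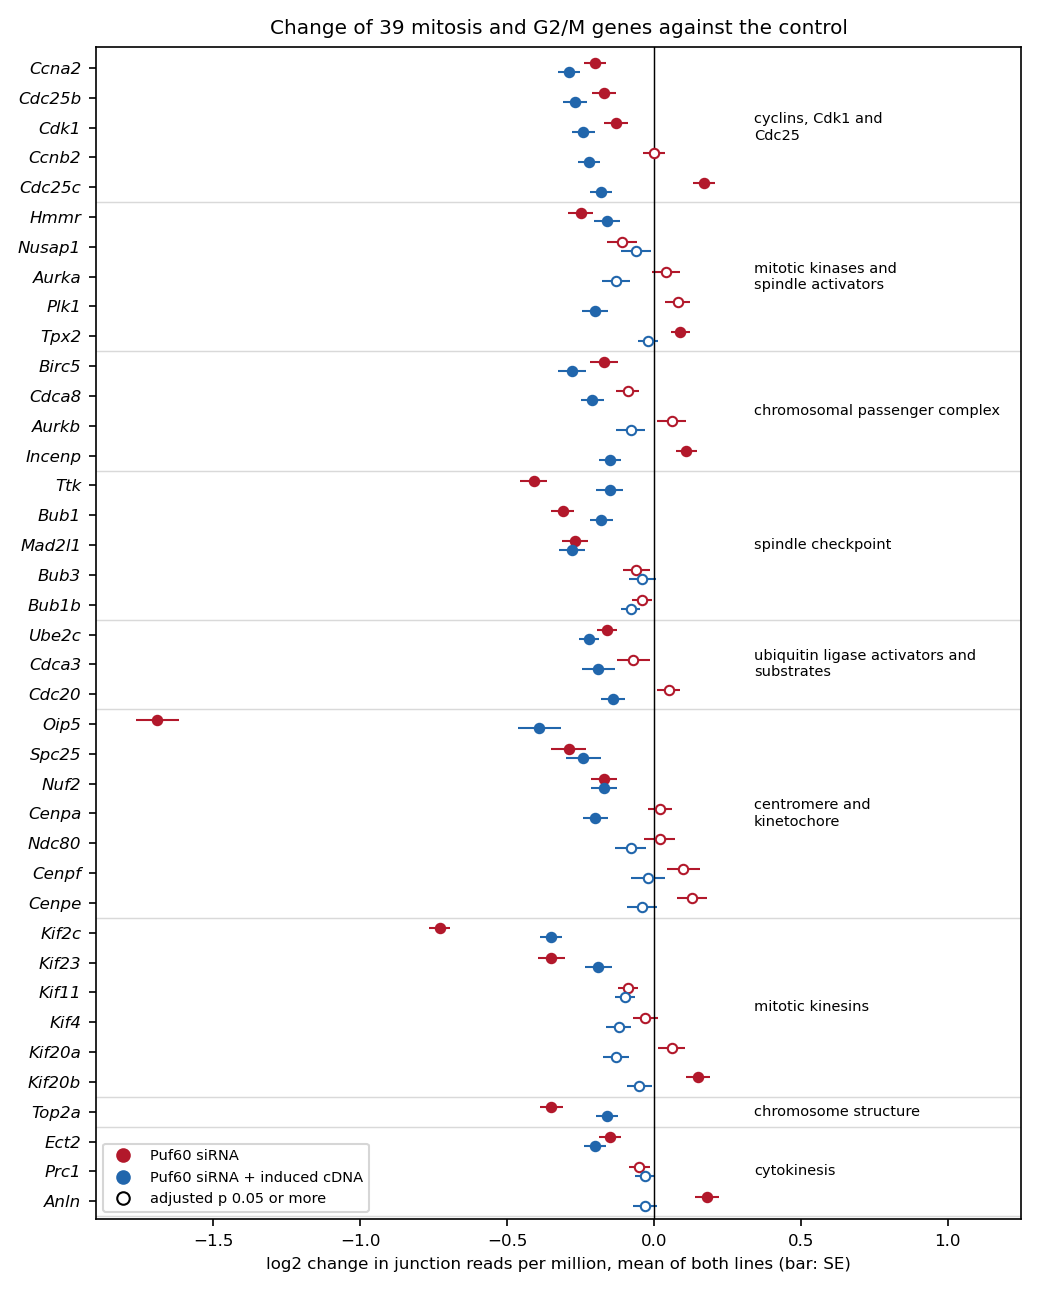
Log2 change against the control for the 39 members with junction reads, grouped by role, as the mean of both lines with its SE. Red points are the siRNA alone and blue points the siRNA with induced cDNA, and open points did not pass an adjusted p of 0.05. Oip5 and Kif2c had the 2 lowest red values, and every blue value lay below 0.

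Among the cyclins, Cdk1 and the Cdc25 phosphatases, 3 of 5 tested members fell and 1 rose on knockdown. Levels are given in CPM, in the order pEx5 replicates A and B, then mEx5 replicates A and B. Ccna2, the cyclin of S phase and G2, was at 349, 358, 328 and 319 in the control libraries, 314, 305, 277 and 283 on knockdown, and 269, 289, 274 and 277 on induction. All its knockdown libraries lay below the controls, and its change was -0.20 ± 0.037 (SE; limma adjusted p = 0.00244). Cdk1, the mitotic kinase, fell by 0.13 (limma adjusted p = 0.0227), a call that was lost on leaving out 5 of the 12 libraries in turn, with adjusted p up to 0.0687. Cdc25b, which activates Cdk1 at the centrosome, changed by -0.17 (limma adjusted p = 0.00789). Cdc25c, a second Cdk1 phosphatase, was at 40.6, 41.4, 36.5 and 37 in controls, 44.9, 46.5, 40.5 and 43.1 on knockdown, and 37.5, 35.7, 32.5 and 31.3 on induction. It rose by 0.17 ± 0.038 (limma adjusted p = 0.00609), in the direction opposite to its family member, and within each line its knockdown libraries lay above the controls, with pEx5 higher than mEx5 in each condition. Ccnb2, a mitotic cyclin, was at 132, 134, 130 and 124 in controls and 132, 135, 129 and 124 on knockdown, a change of 0.00 ± 0.037 (limma adjusted p = 0.969). On induction it was at 107, 108, 112 and 118, below every other library.

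Ccnb1, the main cyclin partner of Cdk1 in mitosis, stood in the authors' deposited table at 315.36 RPKM in pEx5 control, 316.39 on knockdown and 267.13 on induction. The mEx5 values in the authors' deposited table were 281.53, 277.85 and 241.95 RPKM. Its knockdown log2 fold changes in the authors' deposited table were 0.05 (FDR 0.573) and -0.03 (FDR 0.764). On induction against knockdown, the authors' deposited table gives -0.24 in pEx5 (FDR 0.00135) and -0.14 in mEx5 (FDR 0.117).

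The mitotic kinases and spindle activators were divided, with 1 of 5 lower and 1 higher on knockdown. Hmmr, a spindle-pole protein that binds microtubules, was at 282, 314, 281 and 290 in controls, 254, 247, 245 and 236 on knockdown, and 262, 257, 266 and 261 on induction. Its 3 conditions did not overlap, with knockdown lowest, and its change of -0.25 ± 0.043 passed the test (limma adjusted p = 0.00161). Nusap1, which bundles spindle microtubules, was at 176, 195, 212 and 211 in controls, 161, 169, 206 and 201 on knockdown, and 167, 159, 231 and 209 on induction. Its ranges overlapped and its change of -0.11 did not pass (limma adjusted p = 0.0949). Plk1 and Aurka, the Polo-like and Aurora A kinases, had values of 0.08 and 0.04 that did not pass either. Tpx2, which activates Aurora A, rose by 0.09 with an adjusted p of 0.05 (limma, just under the threshold before rounding). That call was lost whichever of the 12 libraries was left out, with adjusted p up to 0.126.

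Of the chromosomal passenger complex, which corrects attachments and guides cytokinesis, 1 of 4 members fell and 1 rose. Birc5 (survivin) was at 302, 313, 267 and 266 in controls, 290, 275, 220 and 241 on knockdown, and 248, 263, 208 and 225 on induction. Within each line its knockdown libraries lay below the controls, and its change was -0.17 ± 0.048 (limma adjusted p = 0.019). That p was above the threshold, up to 0.0706, without mEx5 control A, mEx5 knockdown A, pEx5 control B or pEx5 knockdown B. Incenp, the scaffold of the complex, rose by 0.11 (limma adjusted p = 0.0275), a call lost without any of 7 libraries. Aurkb, its kinase, at 0.06, and Cdca8 (borealin), at -0.09, did not pass.

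All 5 spindle checkpoint genes had values below 0 on knockdown, and 3 of them fell. Ttk (Mps1, the kinase that starts the checkpoint; ENSMUSG00000038379.15) was at 117, 116, 122 and 123 in controls and 90.5, 89, 85.1 and 95.6 on knockdown. It was at 98.6, 105, 112 and 116 on induction. No knockdown library overlapped a library of the other 2 conditions. Its change of -0.41 ± 0.046 (limma adjusted p = 1.56e-04) left it at 75.3% of control. Bub1, a checkpoint kinase, fell by 0.31 (limma adjusted p = 2.69e-04), and Mad2l1 (Mad2, the inhibitor of Cdc20) fell by 0.27 (limma adjusted p = 0.00121). Bub1b (BubR1), at -0.04, and Bub3, at -0.06, did not pass.

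Cdc20, Ube2c and Cdca3 act with the anaphase-promoting complex or are degraded by it, and 1 of the 3 fell. Ube2c, its ubiquitin-conjugating enzyme, was at 525, 538, 530 and 524 in controls, 481, 473, 472 and 470 on knockdown, and 453, 469, 441 and 461 on induction. The 3 conditions stepped down without overlap, and the knockdown change was -0.16 ± 0.034 (limma adjusted p = 0.00475). Cdc20, the activator of the complex in mitosis, was at 153, 141, 142 and 138 in controls, 157, 154, 139 and 143 on knockdown, and 133, 133, 130 and 123 on induction. Only its induction libraries stood apart, and its knockdown value was 0.05 (limma adjusted p = 0.363). Cdca3 had a value of -0.07 that did not pass.

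Oip5 gave the largest change of all members. Oip5 (Mis18β; ENSMUSG00000072980.3) is part of the complex that licenses new Cenpa, the centromeric histone, to load after mitosis. It was at 27, 31.4, 36.2 and 33.3 in controls, 7.95, 8.75, 11.1 and 12 on knockdown, and 17, 16.9, 32.2 and 37.7 on induction. The knockdown libraries lay below all others, at 31% of control, a change of -1.69 ± 0.072 (limma adjusted p = 2.26e-06). All 4 of its introns with an entry gave lower junction reads on knockdown, by -1.53 to -1.81, so the loss was spread over these junctions. The 5′-most of them was at 9.6 to 13.2 in controls and 2.48 to 4.72 on knockdown, and the 3′-most at 6.34 to 7.52 and 1.97 to 2.87. Its coding exon of 123 nt showed no shift in inclusion, with a mean of 90.3% in controls and 90.5% on knockdown.

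The other centromere and kinetochore genes differed from Oip5 and from each other, and 2 of the remaining 6 fell. Spc25, a subunit of the Ndc80 complex that binds microtubules, was at 58.7, 70.2, 52.5 and 55.1 in controls, 51.1, 51.4, 43.6 and 46.9 on knockdown, and 49.5, 51.9, 48.8 and 48.5 on induction. Its knockdown and induction libraries both lay below the controls, and the knockdown change was -0.29 ± 0.059 (limma adjusted p = 0.00407). Nuf2, of the same complex, was at 143, 160, 174 and 167 in controls, 135, 141, 148 and 147 on knockdown, and 131, 137, 154 and 151 on induction. Its ranges overlapped across the lines, and its change of -0.17 ± 0.045 passed the test (limma adjusted p = 0.0132), with 0.051 without pEx5 knockdown A. Ndc80 (0.02), Cenpa (0.02), the kinetochore motor Cenpe (0.13) and its partner Cenpf (0.10) did not pass. The level of Cenpa depended on the measure: the authors' deposited table gives it as lower on knockdown by -0.19 in pEx5 (FDR 0.00714) and -0.18 in mEx5 (FDR 0.014).

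Among the mitotic kinesins, 2 of 6 fell and 1 rose. Kif2c (MCAK, which removes wrongly attached microtubules; ENSMUSG00000028678.13) was at 149, 159, 151 and 151 in controls, 92.8, 91.5, 89.7 and 95 on knockdown, and 106, 107, 135 and 132 on induction. The 3 conditions did not overlap, and the knockdown change of -0.73 ± 0.037 (limma adjusted p = 3.51e-06) left it at 60.4% of control. Each of its 17 introns with an entry gave lower junction reads on knockdown, by -0.60 to -0.83. Kif23, a kinesin of the central spindle, fell by 0.35 (limma adjusted p = 3.73e-04). Kif20b, which acts in cytokinesis, was at 210, 228, 205 and 210 in controls, 240, 234, 234 and 234 on knockdown, and 199, 203, 205 and 220 on induction. Its knockdown libraries lay above all others, and it rose by 0.15 ± 0.042 (limma adjusted p = 0.0203), a call lost without mEx5 control A, mEx5 knockdown B, pEx5 control A or pEx5 knockdown A. Kif20a, the motor that carries the passenger complex to the midzone, was at 271, 264, 244 and 257 in controls, 290, 280, 241 and 269 on knockdown, and 225, 235, 244 and 240 on induction. These ranges overlapped, and its knockdown value of 0.06 did not pass. Kif11 (-0.09), the motor that separates the spindle poles, and the chromosome-bound Kif4 (-0.03) did not pass.

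Top2a, the topoisomerase that untangles sister chromatids (ENSMUSG00000020914.17), was at 1797, 1967, 1842 and 1892 in controls, 1465, 1445, 1513 and 1475 on knockdown, and 1588, 1570, 1775 and 1796 on induction. Its 3 conditions did not overlap, and it fell by 0.35 (SE 0.039; limma adjusted p = 1.58e-04), to 78.7% of control. In the cytokinesis group, Anln (anillin, a scaffold of the contractile ring) was at 232, 231, 219 and 224 in controls, 281, 261, 241 and 248 on knockdown, and 219, 225, 213 and 228 on induction. Its knockdown libraries lay above all others, and it rose by 0.18 ± 0.04 (limma adjusted p = 0.0057). Ect2, the exchange factor that starts the ring, fell by 0.15 (limma adjusted p = 0.0113), and Prc1, which bundles midzone microtubules, had a value of -0.05 that did not pass.

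**Figure D2:**
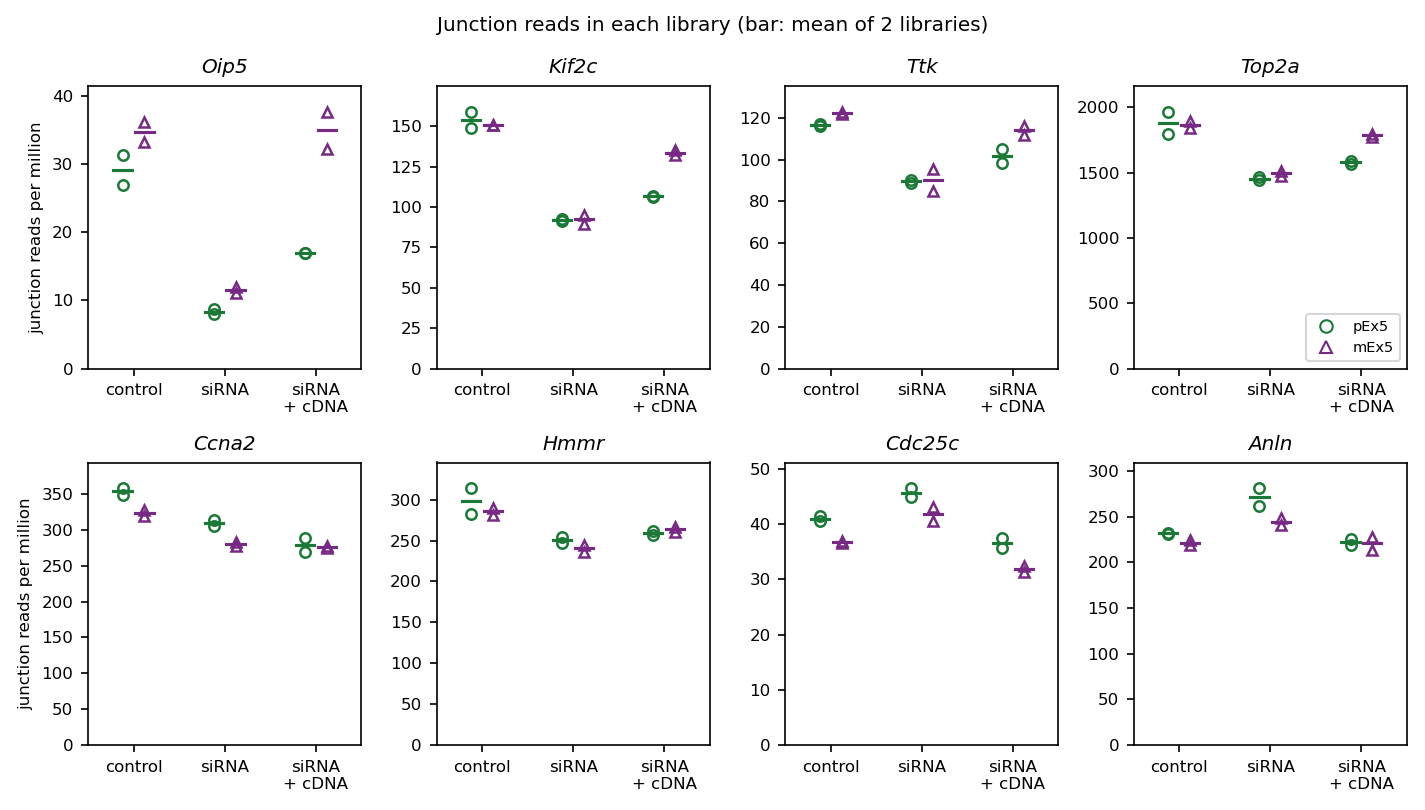
Level in each library, in CPM of junction reads, for 8 members, by condition, with circles for pEx5, triangles for mEx5 and bars for the mean of 2 libraries. Oip5, Kif2c, Ttk and Top2a were lowest on siRNA and higher with induced cDNA, Ccna2 was lowest with induced cDNA, and Cdc25c and Anln were highest on siRNA.

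With siRNA and induced cDNA, some members were higher than on knockdown and others lower. Against knockdown, 6 of 39 members rose on induction and 13 fell, where 17.4% of all genes rose and 15.4% fell (limma, mean of both lines, adjusted p under 0.05). The share of members that rose, 15.4%, was near that of all genes, and the share that fell was 33.3%. The 6 that rose had all fallen on knockdown: Oip5 by 1.30, Kif2c by 0.37, Ttk by 0.26, Top2a by 0.19, Kif23 by 0.16 and Bub1 by 0.13. The calls of Bub1 and Kif23 were lost on leaving out any of 10 and 6 libraries. All 5 members that had risen on knockdown fell on induction, namely Cdc25c (-0.36), Incenp (-0.26), Anln (-0.22), Kif20b (-0.19) and Tpx2 (-0.11). These 2 comparisons share the knockdown libraries. Induction libraries lay below all knockdown libraries for 9 members and above them for 5, where 8.62% and 10.2% of all genes did so. The other 8 that fell, Plk1 (-0.28), Ccnb2 (-0.22), Cenpa (-0.22), Cdc20 (-0.19), Kif20a (-0.19), Aurka (-0.17), Cenpe (-0.16) and Cdca8 (-0.12), had not been called on knockdown. Of these, Aurka, Cenpe and Cdca8 lost the call on leaving out any of 5, 9 and 11 libraries, as did Tpx2 with 8.

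Against the control, the induction libraries were lower for 24 of 39 members and higher for none, where 15.4% of all genes were lower and 17.5% higher (limma, mean of both lines, adjusted p under 0.05). The lower members made up 61.5% of those tested. All 39 values were below 0, with a median of -0.16 and a range from -0.39 to -0.02, and the median of all genes was -0.00. With scaling by total junction reads, 37 of the 39 were below 0 and the median was -0.13. Induction libraries lay below all control libraries for 19 members and above them for none, where 8.96% and 8.98% of all genes did so. The cyclin and kinase group was lower throughout, with Ccna2 at -0.29, Cdc25b at -0.27, Cdk1 at -0.24, Ccnb2 at -0.22 and Cdc25c at -0.18. Oip5 reached 76.5% of control and Kif2c 78.2%, and both remained lower by the test (limma adjusted p = 0.00451 and 2.99e-04). Ttk and Top2a reached 90.2% and 89.6% (limma adjusted p = 0.0371 and 0.0156), and the call of Ttk was lost on leaving out any of 9 libraries. Hmmr, Cdc20, Cdca3 and Nuf2 lost theirs without any of 6, 6, 4 and 4 libraries, Spc25 without mEx5 control B or pEx5 induction A, and Top2a without mEx5 control B. The summed level of the 39 members was 10425 to 10863 in controls and 9556 to 9814 on knockdown. On induction it was 9130 to 9310 in pEx5 and 9776 to 9794 in mEx5. Top2a alone gave the most to this sum, at 1797 to 1967 in controls, 1445 to 1513 on knockdown and 1570 to 1796 on induction. Since the induced cells also received doxycycline, its part in these values cannot be told apart.

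Within each line the knockdown counts were smaller, since each contrast rests on 4 libraries. In pEx5, 12 of 39 members fell and 1 rose, where 17.4% and 18% of all genes did. In mEx5, 13 fell and 1 rose, where 15.7% and 15.4% of all genes did (limma, adjusted p under 0.05). With scaling by total junction reads these splits became 10 and 3 in pEx5, and 11 and 3 in mEx5. The total of 13 in pEx5 was 6, 8 and 7 without control B, knockdown A and knockdown B of that line. The total of 14 in mEx5 was 7, 6 and 8 without control A, control B and knockdown A of that line. Over the 12 omissions the number that rose was 0 to 1 in pEx5 and 0 to 3 in mEx5. The knockdown effect was not called different between the lines for any member. The lowest p was 0.134 and the lowest adjusted p 0.918 (limma), and 0 of 39 were under an unadjusted p of 0.05. The SE of this difference ran from 0.066 (Tpx2) to 0.14 (Oip5), so small differences could be missed. No gene of the 10363 was called in that test (0% of all genes), and limma with a variance trend called 3 genes and 0 members.

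Induction gave 2 rises and 10 falls in pEx5, where 10.4% and 6.4% of all genes were called, and 5 rises and 4 falls in mEx5, where 11% and 9.26% were (limma, adjusted p under 0.05). The total of 12 in pEx5 was 3, 5 and 3 without induction A, knockdown A and knockdown B of that line, and the total of 9 in mEx5 was 5 without its induction B. Oip5 rose by 1.02 ± 0.1 in pEx5 and by 1.59 ± 0.1 in mEx5, and its induced libraries were at 17 and 16.9 against 32.2 and 37.7. Kif2c rose by 0.21 ± 0.052 and by 0.53 ± 0.052, with 106 and 107 against 135 and 132. The mEx5 libraries were higher for both genes, but the test of the difference between lines did not pass for either, at -0.57 (limma adjusted p = 0.174) for Oip5 and -0.32 (limma adjusted p = 0.153) for Kif2c. No member passed that limma test, with a variance trend or without it, with 5 of 39 at an unadjusted p under 0.05, and 0.0965% and 0.0482% of all genes were called. In the authors' deposited table, which compares the induced lines directly, Oip5 was lower in pEx5 by -0.95 (FDR 7.55e-24) and Kif2c by -0.29 (FDR 3.53e-06). Oip5 was also lower in the pEx5 control libraries, by -0.25 (limma adjusted p = 0.114), which did not pass. The authors' deposited table gives Oip5 as lower in pEx5 before induction too, by -0.21 in controls (FDR 0.0552) and -0.45 on knockdown (FDR 0.000116). For Kif2c it gives 0.05 in controls (FDR 0.567) and 0.05 on knockdown (FDR 0.654).

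The control libraries of the 2 lines differed for 3 members. Cdca3 was higher in pEx5 by 0.40 ± 0.079 (limma adjusted p = 0.00872), and Ndc80 and Tpx2 were lower, by -0.26 and -0.19 (limma adjusted p = 0.0427 and 0.0236). The 1 higher and 2 lower members compare with 9.56% and 11.8% of all genes. With scaling by total junction reads the count became 1 higher and 6 lower, and the total of 3 was 0, 1 and 1 without mEx5 control A, mEx5 control B and pEx5 control A.

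By the log2 fold changes and FDR of the authors' deposited table, 18 of 40 members were lower and 1 higher on knockdown in pEx5, where 17.5% and 15.2% of 18600 genes were at an FDR under 0.05. The authors' deposited table gives Oip5 at -1.88 in pEx5 and -1.64 in mEx5, Kif2c at -0.74 and -0.73, and Ttk at -0.42 and -0.45 on knockdown, close to the junction reads. In mEx5 the authors' deposited table gives 17 lower and 1 higher, where 16.8% and 14% of all genes were. The higher member was Anln in pEx5 (0.21, FDR 0.00164) and Kif20b in mEx5 (0.14, FDR 0.045). Cdc25c, Incenp and Tpx2, called higher from junction reads over both lines, did not pass there in either line, with FDR from 0.0875 to 0.857. On induction the authors' deposited table has 16 lower and 3 higher in pEx5 (8.64% and 10.7% of all genes) and 3 lower and 8 higher in mEx5 (9.26% and 10.7%). On the per-length scale the members were well expressed: the authors' deposited table lists them at 14.4 to 716 RPKM in pEx5 control, with a median of 57. Cdk1 was highest, followed by Ube2c and Ccnb1, and Cdc25c was lowest.

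Splicing was described by percent spliced in (PSI), the share of transcripts that include an exon or use a splice site. Of the members' events, 76 in 25 genes had at least 10 reads in every library and a mean PSI of 5 to 95. They were 35 exons, 18 alternative 3′ sites, 6 alternative 5′ sites and 17 introns. On knockdown 4 rose and 11 fell by at least 10 points (limma on the logit of inclusion, adjusted p under 0.05), where 5.21% and 12.3% of 22770 events did. These shares are near the background, and the events are given here one by one for what they show of each gene. None of the 17 introns was called, with PSI differences from -6.8 to 6.45. On induction 5 rose and 3 fell, where 8.88% and 2.59% of all events did, and 8 rose without mEx5 induction A. The knockdown effect was called different between lines for no member event and no event of the table (limma, 0%), with 3 of 76 at an unadjusted p under 0.05. Positions below are as deposited, and the genome build of the splicing table is not given in the sources used here. Exons were looked for in GENCODE M21 by their length and the lengths of both flanking introns. This matched 285 of the 449 member exon events with known flanks. Among the exons described below, the 137 nt exon of Cenpa and the 214, 115, 73 and 95 nt exons of Ttk had no match.

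Exons of 5 members, 4 with a called change in inclusion and that of Kif2c for its place in a gene that fell, are shown in capitals with the neighbouring 20 bases of the spliced transcript in lower case, 5′ to 3′, from GENCODE M21 (GRCm38). These 5 lie wholly in coding sequence. The Ccna2 exon is chr3:36567000-36567113 (minus strand), exon 6 of 8, and the Incenp exon is chr19:9883192-9883203 (minus strand), exon 10 of 18. The Kif20b exon is chr19:34972397-34972498 (plus strand), exon 29 of 32, and the Ndc80 exon is chr17:71518738-71518840 (minus strand), exon 6 of 17. The Kif2c exon is chr4:117177921-117177969 (minus strand), exon 4 of 20.
Ccna2: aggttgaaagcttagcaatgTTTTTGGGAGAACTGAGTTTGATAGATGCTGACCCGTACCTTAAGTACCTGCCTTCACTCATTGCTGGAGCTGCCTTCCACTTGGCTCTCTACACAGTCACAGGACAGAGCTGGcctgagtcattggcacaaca
Incenp: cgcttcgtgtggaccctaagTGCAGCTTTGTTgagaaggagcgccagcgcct
Kif20b: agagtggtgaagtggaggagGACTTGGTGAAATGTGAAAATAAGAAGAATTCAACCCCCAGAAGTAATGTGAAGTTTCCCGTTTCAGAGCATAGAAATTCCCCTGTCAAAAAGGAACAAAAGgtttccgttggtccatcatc
Ndc80: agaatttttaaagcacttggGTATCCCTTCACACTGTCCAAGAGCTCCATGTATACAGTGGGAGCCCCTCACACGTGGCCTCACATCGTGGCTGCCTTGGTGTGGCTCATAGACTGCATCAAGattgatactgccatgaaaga
Kif2c: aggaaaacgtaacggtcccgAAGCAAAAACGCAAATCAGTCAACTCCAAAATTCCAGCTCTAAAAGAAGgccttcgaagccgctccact
The exons of Ccna2 (114 nt), Incenp (12 nt) and Kif20b (102 nt) are multiples of 3 nt long, and those of Ndc80 (103 nt) and Kif2c (49 nt) are not.

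The Ccna2 exon shown was included at 97.8, 98.3, 97.1 and 98.3% in controls, 86.7, 87.2, 84.1 and 85.2% on knockdown, and 91.8, 92.8, 96.1 and 96.2% on induction. The 3 conditions did not overlap, and inclusion fell by 12.1 points on knockdown (limma adjusted p = 4.43e-09). The microexon of Incenp was at 55.4, 55.3, 56.3 and 50% in controls, 39.5, 36.1, 40.3 and 35.9% on knockdown, and 61, 61.1, 52.8 and 50.9% on induction. Its knockdown libraries were the lowest, by -16.3 points (limma adjusted p = 1.97e-05), and on induction inclusion rose by 18.5 points, back to the control range in mEx5 and to values above every control library in pEx5. The same gene's total junction reads moved the other way, up on knockdown and down on induction. That sum is not independent of the microexon, since a summed intron of 5270 nt spans it and counts reads that skip it. The 17 junctions of Incenp changed by -0.07 to 0.54 on knockdown, with a median of 0.12. How much of the change in the sum comes from skipping was not tested.

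Ttk had 5 exons with lower inclusion on knockdown, between chr9:83729378 and 83737748 as deposited. Its 214 nt exon was at 96.2, 94.9, 95.9 and 94.3% in controls, 76.6, 76.5, 83 and 79.4% on knockdown, and 94.1, 94.3, 89.5 and 92.8% on induction. That is a difference of -16.4 points on knockdown (limma adjusted p = 1.53e-07), with knockdown below all other libraries. The 154 nt exon, exon 2 of 22 and coding in 136 of its bases, went from 94.1, 96.2, 94.6 and 94.2% to 81.6, 79.3, 84.8 and 79.5%, and was at 94.3, 95.1, 88.1 and 93.5% on induction. It differed by -13.5 points on knockdown (limma adjusted p = 4.01e-06). The neighbouring exons of 115, 73 and 95 nt differed by -11.1, -12.2 and -11.6 points (limma adjusted p = 3.24e-04, 5.74e-04 and 5.79e-04). The 73 nt exon was at 98.5, 98.2, 100 and 99.1% in controls, 84.9, 88.3, 83.7 and 90.2% on knockdown, and 97.6, 97.6, 88.6 and 98.7% on induction. In all 3, induced mEx5 replicate A was lower than the other induced libraries. None of these 5 exons is a multiple of 3 nt long. The exons of 214, 115, 73 and 95 nt had no match in GENCODE M21, so whether they are coding is not known here. Whether these exons bear on the level of Ttk was not tested.

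Cenpa and Bub1 showed losses of a similar size. A 137 nt exon of Cenpa (chr5:30972065-30972201 as deposited) was at 31.8, 30.9, 32.6 and 28.7% in controls, 10.9, 13.3, 12.9 and 12.1% on knockdown, and 16.4, 14.2, 23.4 and 24.4% on induction. It differed by -18.7 points on knockdown (limma adjusted p = 1.55e-07), and induction left it below every control library in both lines. A 3′ splice site of Bub1 that adds 42 nt was used at 93.7, 94.2, 97.5 and 93.8% in controls, 80.2, 79, 76.8 and 77.6% on knockdown, and 92.3, 89.2, 93.7 and 89.6% on induction. Its use differed by -16.4 points (limma adjusted p = 6.49e-06), with all knockdown libraries below the rest. A 76 nt exon of Nuf2 is exon 2 of 15 in its matched transcript, with 0 coding bases. It was at 55.2, 50.3, 55.6 and 54.1% in controls, 39.3, 38.5, 44.4 and 40.6% on knockdown, and 45.4, 47.9, 54.1 and 53% on induction. It differed by -13.1 points (limma adjusted p = 4.65e-05), and all its knockdown libraries were lowest.

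Ndc80 had a pair of adjacent exons that moved in opposite directions. The exon shown, of 103 nt, was at 89.3, 88.6, 87.1 and 91.9% in controls, 74.1, 80, 80.3 and 77.9% on knockdown and 90.2, 86, 89.6 and 88.8% on induction. It fell by 11.2 points on knockdown (limma adjusted p = 1.20e-04), a call lost without mEx5 control replicate B or pEx5 knockdown replicate A, and rose by 10.6 on induction. Exon 5, of 173 nt, was at 67 to 70.2% in controls, 73.8 to 79.3% on knockdown and 63.2 to 68.6% on induction. Its knockdown value of 7.53 points was under the 10-point threshold, and it fell by 11 points on induction (limma adjusted p = 4.61e-04).

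Gains in inclusion on knockdown came from Kif20b, Kif23 and Tpx2. The Kif20b exon shown was at 76.7, 76.4, 70.2 and 74.8% in controls, 94.2, 95, 92.1 and 91.8% on knockdown, and 87.9, 81, 73.8 and 77.1% on induction. It rose by 18.7 points (limma adjusted p = 2.83e-07), and all induced libraries but mEx5 A lay above every control library. A 3′ site of Kif20b that adds 120 nt went from 30.7, 22.9, 27.4 and 21.2% to 49.4, 38.9, 41.8 and 35.9%, and was at 43.7, 36.2, 17 and 28% on induction. Its knockdown libraries lay above all controls, by 15.9 points (limma adjusted p = 0.00251). A 312 nt exon of Kif23, exon 18 of 23 and wholly coding, was at 30.2, 38, 28.5 and 30.9% in controls, 49.1, 48.1, 48.3 and 49.9% on knockdown, and 36.3, 39.8, 33.9 and 38.2% on induction. It rose by 16.9 points (limma adjusted p = 3.88e-05) and stood above all other libraries on knockdown. A 5′ site of Tpx2 was used at 28.8, 29.3, 25.7 and 27.8% in controls, 39.4, 37.8, 39.9 and 39.8% on knockdown, and 32.5, 38.3, 29.9 and 31.6% on induction, a rise of 11.3 points (limma adjusted p = 7.12e-05) with no overlap between control and knockdown.

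The Kif2c exon shown was outside the PSI range that was tested and was picked after its values were seen. It was included at 99.2, 99.5, 99.2 and 100% in controls, 95.1, 93.2, 91.1 and 93.5% on knockdown, and 97.6, 96.5, 98.5 and 99.7% on induction. The knockdown libraries were the lowest. Whether the inclusion of this exon bears on the level of the gene was not tested.

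**Figure D3:**
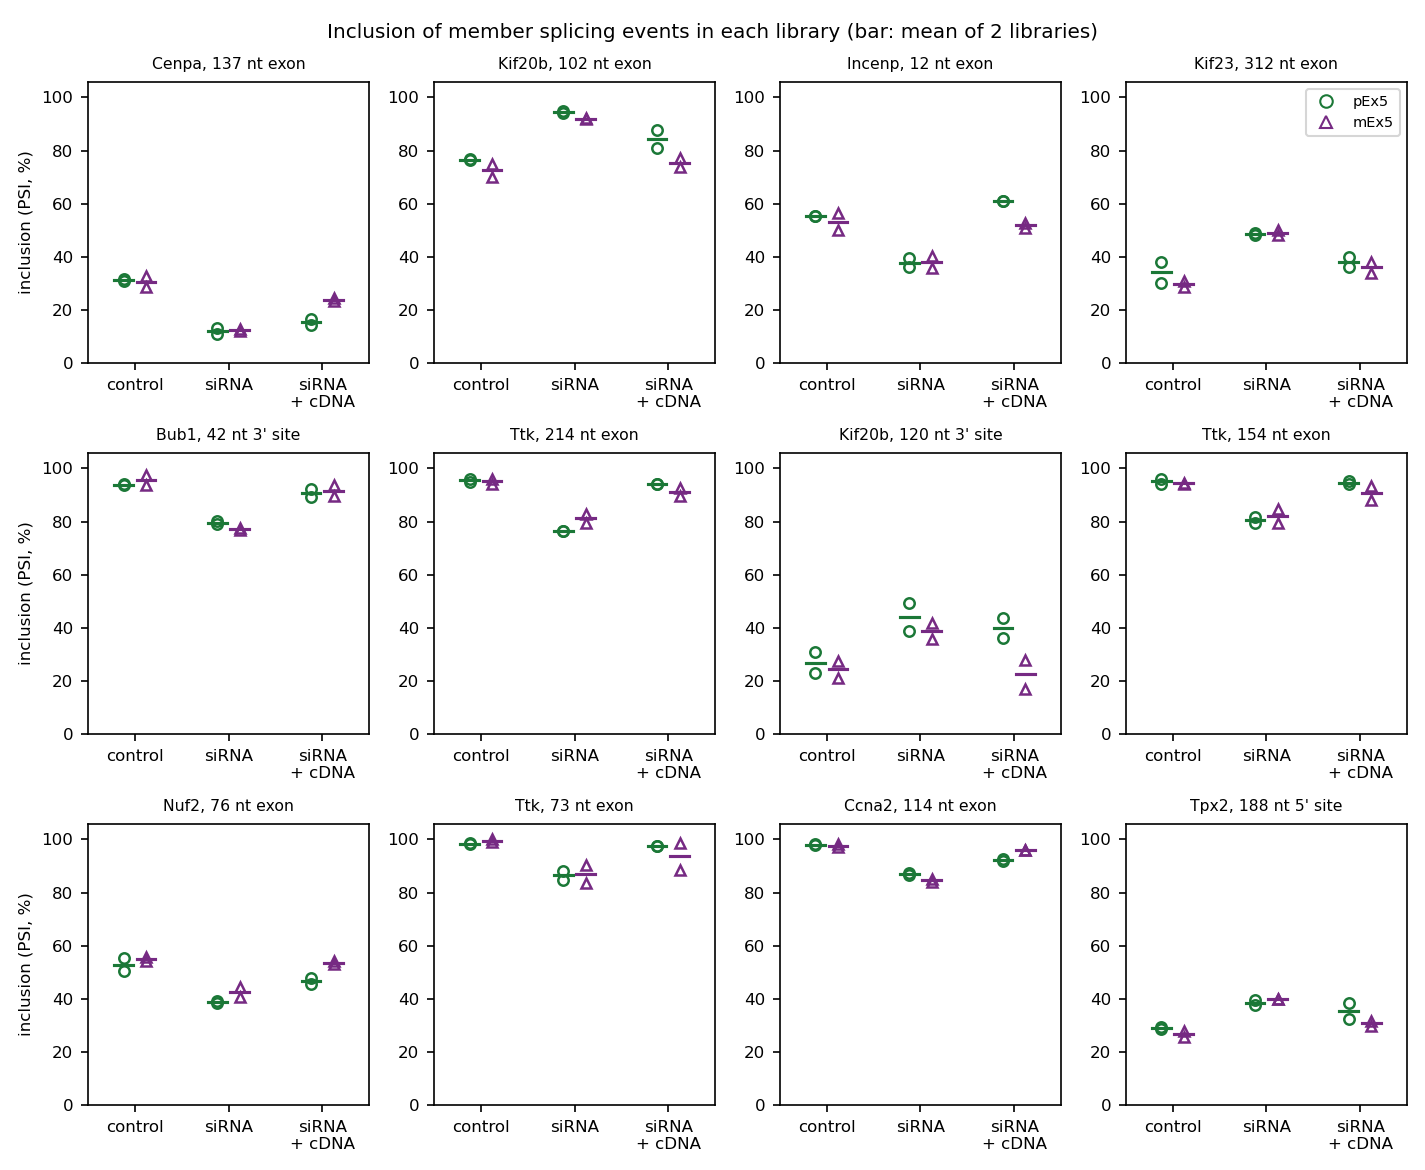
Inclusion (PSI, in percent) of the 12 member events with the largest called differences, taking at most 3 per gene, in each library, with circles for pEx5, triangles for mEx5 and bars for the mean of 2 libraries. Cenpa, Incenp, Bub1, Ttk, Nuf2 and Ccna2 events were lowest on siRNA, and Kif20b, Kif23 and Tpx2 events had their highest means on siRNA.

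Other cell-cycle genes, from 7 lists of related functions, give the setting of these values. Of 28 other kinetochore genes tested, 10 fell and 3 rose on knockdown, with Cenpi, a constitutive centromere protein, lowest at -0.99 and Cenpw highest at 0.49 (limma adjusted p = 2.89e-06 and 4.56e-05). Of 18 genes of the anaphase-promoting complex and its partners, 9 fell, with the subunit Cdc16 lowest at -0.71, and 2 rose, with Anapc2 highest at 0.39. Cohesin and condensin genes gave 5 falls, led by Smc4 at -0.38, and 2 rises, led by Smc1a at 0.22, among 17. Transcription regulators of mitotic genes, a list that holds activators and repressors, gave 4 falls and 0 rises among 13 (limma; 6 of 13 at an unadjusted p under 0.05), with E2f5 lowest at -0.53.

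S phase genes, which encode the replication machinery, were lower as a list: 30 of 42 fell and none rose on knockdown, with a median of -0.23, and E2f1 was lowest at -0.98 (limma adjusted p = 2.55e-05). On induction against control 33 of 42 were lower and none higher. The G2 checkpoint and p53 list was mixed, with 5 of 13 higher and 3 lower: Cdkn1a, the p21 inhibitor, rose by 0.47 and the damage kinase Atr changed by -0.86. Cdkn1a was at 27.1 to 33.7 in controls, 36.5 to 43.8 on knockdown and 37.7 to 44.1 on induction. Of 8 G1 genes, Cdk4 alone was called, at -0.16 (limma adjusted p = 0.0209). The share of each list is to be read beside the 23.2% of all genes that fell and the 25.4% that rose.

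**Figure D4:**
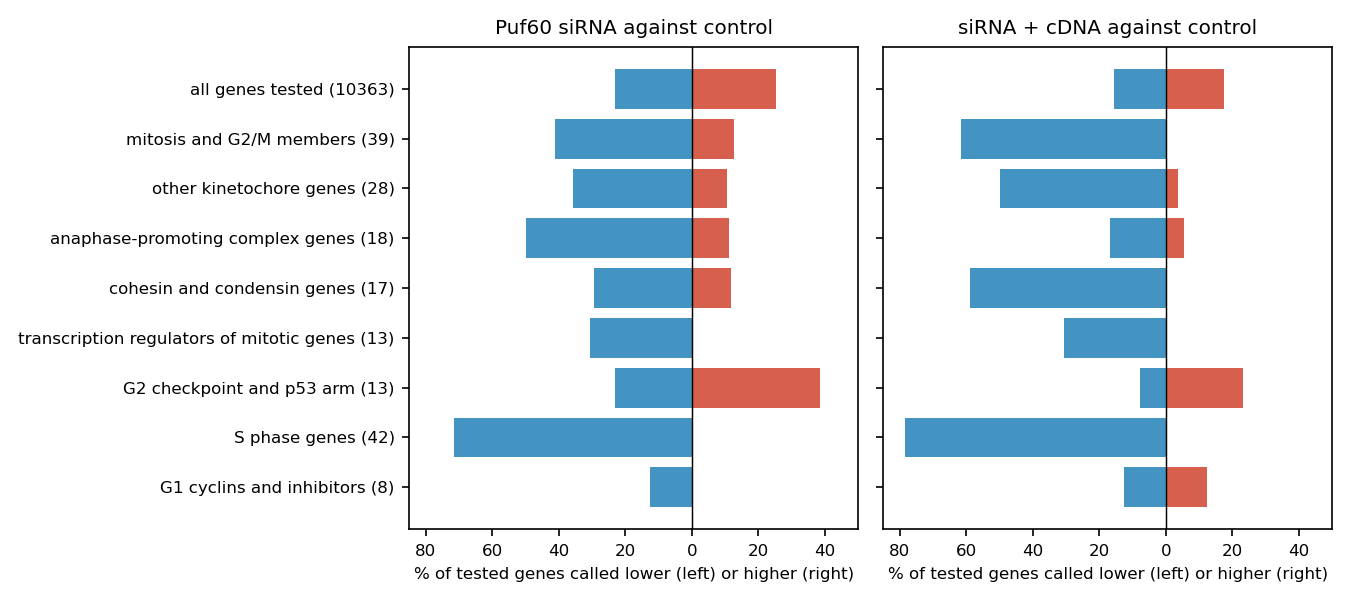
Share of tested genes called lower (blue, left) or higher (red, right) in each list, for siRNA against control and for siRNA with induced cDNA against control, with the number tested in brackets. The members were lower in 41% of cases on knockdown and 61.5% on induction, where all genes were at 23.2% and 15.4%, and S phase genes had the longest blue bar in both panels.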

How the data were processed

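Poly(A) RNA of 12 libraries was sequenced with a stranded kit, per the labels' protocols. The authors computed RPKM per gene for each group, per the file headers. The authors computed log2 fold changes between groups and their p-value (FDR), per the file headers. The submitters' processing notes name Salmon 0.14.1, edgeR and mm10, without their roles. The splicing table holds percent spliced in (PSI) per library with a text of read counts, as deposited by the authors, made with vast-tools by its name. Its build is not given in the sources used here. A second table of group PSI was not used here. No column of per-sample values was left unused (0).

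For each gene the reads across exon-exon junctions of its introns were summed, as a substitute for gene counts, scaled by the median of ratios, and taken to log2 CPM with a prior count of 2. A gene entered the test at a mean of 20 reads or more, fitted with limma 3.58.1 (R 4.3.3), with 6 group coefficients and Benjamini-Hochberg adjustment over all genes. No edgeR count test was run, since the values are junction reads and not gene counts. The PSI test used limma on the log2 ratio of included to excluded reads, 0.5 added to each, weighted by reads. The sum of junctions counts a fragment once per junction, so long genes with many introns weigh more, and levels are compared between genes only as RPKM. PSI recomputed from the read text lay within 0.02 points of the deposited PSI for 98.89% of entries. A read that skips an exon may be counted at no intron, which would lower the sum of genes with skipped exons. Where an intron entry spans the exon, such a read is counted and can raise the sum instead. This holds for the 12 nt exon of Incenp and a 42 nt exon of Kif23.

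The members and lists were chosen with earlier results of these data known. All 40 members are named. Those given by library have the largest change of their role or a direction that differs from most of it. Of other lists, the largest called rise and fall are named. All called splicing events are named, and 12 are given in full (at most 3 a gene). The values of the Ndc80 103 nt exon in each library were added after they were seen. The scripts were tested on simulated data. Alternatives changed the scaling, prior count, read filter, variance trend, weights and thresholds, left out each library and added the replicate letter. Between replicates the chi-square per degree of freedom was 4.71 to 9.71. Fragments counted at several junctions also raise this value, so it cannot separate spread between replicates from sampling noise.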

Additional observations from a re-analysis of the deposited data

How the results depend on the processing

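Results are counts of members called (of 39) or of member events called (of 76), and every member kept its direction on knockdown and on induction against control where it was called. Knockdown in both lines gave 21 called members, 16 to 21 without single libraries and 20 with the replicate block. Induction against control gave 24, and 18 to 25 without single libraries. Over 15 pairs of groups the correlation of A minus B ran from -0.13 to 0.16, with 2 over 0.1. These values show no strong shift shared by replicate letter. They cannot tell whether libraries of the same letter were handled together, which the labels do not say. The replicate block moved no count by more than 2. Knockdown in pEx5 gave 13, and 6 to 13 without single libraries, and in mEx5 14, and 6 to 16. Induction against knockdown gave 12 in pEx5 (3 to 12 without single libraries, 19 with limma's variance trend, 19 in the authors' deposited table) and 9 in mEx5 (5 to 9). The control lines gave 3 (0 to 4 without single libraries), 7 with scaling by total junction reads, 9 with the variance trend and 9 in the authors' deposited table. Splicing calls on knockdown went from 15 to 7 with a threshold of 15 points. On induction they went from 8 to 4 without weights and at any mean PSI, and to 1 at 15 points. Leaving out a library also removes a residual degree of freedom. The fit at any mean PSI was chosen after seeing the data and gave 14 and 8 calls. Oip5 had the fewest reads of the members (286 to 1120 a library) and an SE of 0.072, and the calls of Tpx2 and Incenp on knockdown, at 0.09 and 0.11, were lost without single libraries.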
